A study of Mus musculus with 10 samples.

Results

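Zinc finger genes named Zfp followed by a number were examined in tibialis anterior muscle of FoxP1iSkmTg and Control mice. The members were the protein-coding genes with such a name, optionally ending in a letter, in the deposited table of the comparison. There were 50 of these among the 3480 genes in the table and among its 3043 protein-coding genes, and 1 further matching name belonged to a pseudogene and was left out. The table keeps only genes whose unadjusted p was at most 0.04998 in the authors' own comparison of the same mice. Every member was therefore already selected for a difference, and Zfp genes outside the table were not analysed here.

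FoxP1iSkmTg mice carried the FoxP1flSTOP transgene, which expresses Foxp1 once a stop cassette is removed, together with HSA-MerCreMer, a Cre recombinase that tamoxifen activates and that the human skeletal alpha-actin promoter drives in muscle fibres. Control mice carried FoxP1flSTOP alone. All 10 mice, 5 per group, were females of 13 to 18 weeks and received tamoxifen at 80 mg/kg on 4 days. No group had MerCreMer without the transgene, so an effect of Foxp1 cannot be told apart from an effect of activated Cre. Foxp1 itself stood at 371, 232, 390, 270.3 and 259.9 normalized counts in Control replicates 1 to 5 and at 5352, 2163, 5813, 1423 and 1289 in FoxP1iSkmTg replicates 1 to 5. A normalized count is the read count divided by a size factor for the depth of each mouse. The groups did not overlap. In the edgeR quasi-likelihood test the log2 fold change of Foxp1 came to 3.39 ± 0.44 (SE) at an adjusted p of 0.000631.

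Reads over the listed genes came to 6620970 to 8737660 per mouse, of which 44208 to 54269 fell on Zfp members. Of 14 skeletal muscle markers, 8 were listed, among them Acta1 and Ckm, and 5 of the 14 fell. The summed FPKM (reads scaled to gene length and library size) of the listed muscle markers ranged from 39524 to 48354 in Control and from 27801 to 34857 in FoxP1iSkmTg mice, and the part of this in the results below was not tested. Few markers of other cell types were listed: none of the endothelial, macrophage, fibro-adipogenic, satellite, Schwann or mural markers was in the table. Absence from the table means only that the listing limit was not met. It says nothing of a marker's level, so the purity of the tissue cannot be read from it. Of the adipocyte, lymphocyte and erythroid markers 1 each was listed, at a summed FPKM of at most 0.758 in any mouse, and none of these passed the test. In such bulk samples fewer cells of a type and less RNA per cell cannot be told apart.

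Zinc finger proteins of the C2H2 class hold short repeats in which 2 cysteines and 2 histidines grip a zinc ion, and rows of such fingers read stretches of DNA, or in some proteins bind RNA. Many also carry a KRAB box, which recruits the cofactor TRIM28 (KAP1) and with it enzymes that silence chromatin, and KRAB zinc finger genes are known for silencing transposable elements. A smaller class carries a SCAN domain, through which the proteins pair. The name Zfp marks the finger and not a shared function, so the members also include RNA-binding and ribosome-assembly proteins.

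The coding sequences of the members, translated by script from GENCODE release M21, held 9 fingers at the median and 27 at most, in Zfp423 and Zfp521. At least 1 finger of the pattern was found in 48 of the 50 members, and Zfp703 and Zfp972 had none. A KRAB A box was found in 20 members and a SCAN domain in 3, namely Zfp110, Zfp263 and Zfp397. The KRAB pattern scores 18 residues, of which the 20 members matched at least 13 and the others at most 9, reached by Zfp189 and Zfp641. Members below the required score are called without a box here, which says only that this pattern was not found. The coding stretch of 1 finger each is shown for 5 of the genes that differed between the groups. Capitals mark the codons of the 2 cysteines and 2 histidines in these stretches. They lie at chr15:37001896-37003700 on the minus strand for Zfp706, chr17:21560453-21560515 on the plus strand for Zfp52, chr4:120931079-120931141 on the minus strand for Zfp69, chr15:98288925-98288987 on the minus strand for Zfp641 and chr2:120545872-120555266 on the minus strand for Zfp106 (GRCm38), all in coding exons, and those of Zfp706 and Zfp106 each span 2 exons.
Zfp706: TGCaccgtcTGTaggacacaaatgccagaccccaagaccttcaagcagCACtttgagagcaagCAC
Zfp52: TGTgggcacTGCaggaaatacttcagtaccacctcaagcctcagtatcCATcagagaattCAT
Zfp69: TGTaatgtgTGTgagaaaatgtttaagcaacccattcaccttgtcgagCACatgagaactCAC
Zfp641: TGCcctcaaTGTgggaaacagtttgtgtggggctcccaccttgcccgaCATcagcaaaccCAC
Zfp106: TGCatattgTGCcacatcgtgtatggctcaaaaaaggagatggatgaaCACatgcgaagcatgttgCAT
The fingers shown for Zfp52, Zfp69 and Zfp641 had the same length, 63 bases from the first cysteine codon to the last histidine codon. The finger shown for Zfp706 took 66 and that for Zfp106 took 69. For Zfp52 and Zfp69 it is the first finger followed by a set linker sequence, and for the others the first match of the pattern. Other fingers of these genes were not compared.

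Of the 50 members, 47 had enough reads for the edgeR test and 3 did not. At an adjusted p under 0.05, 5 rose (Zfp706, Zfp703, Zfp52, Zfp622 and Zfp870), 4 fell (Zfp106, Zfp641, Zfp654 and Zfp69) and 38 did not pass. The share past the threshold was 19.1% of the tested members, against 37.3% of all 3115 tested genes in the table and 36.9% of its 2880 tested protein-coding genes. By direction 10.6% of the members rose and 8.51% fell, against 17.5% and 19.8% of all tested genes and 18.2% and 18.8% of the protein-coding ones. Since the table was selected on this contrast, these shares describe listed genes only. In 14 members the values of the groups did not overlap, which is 29.8% of those tested, against 42.2% of all tested genes and 42.1% of the protein-coding ones. Of these 14, 9 were higher (19.1% of the members, against 19.9% of all tested and 20.7% of protein-coding genes) and 5 were lower (10.6%, against 22.4% and 21.4%).

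The differences were mostly small. In 43 of the 47 tested members the change was under 1.5-fold, and the median absolute log2 fold change was 0.34, against 0.38 over all tested genes. By direction alone, 29 members lay above Control and 18 below, a share above of 61.7%, against 50.2% of all tested genes and 52.3% of the tested protein-coding genes. The median log2 fold change was 0.25 for the members and 0.13 for all tested genes. Members were also counted less deeply, with a median of 189 normalized counts in Control mice against 454 over all tested genes. The part of this difference in depth in the lower share of calls was not tested.

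**Figure D1:**
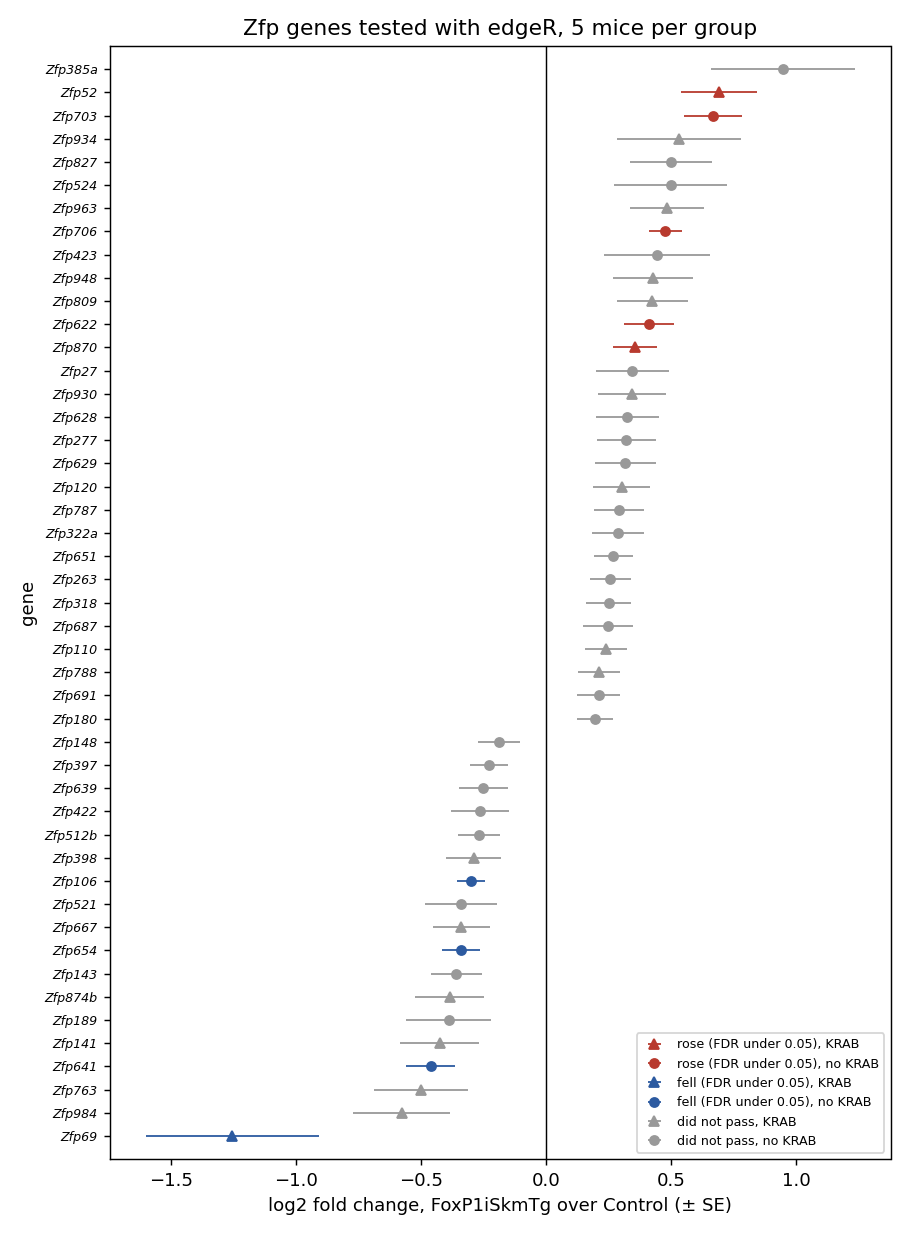
Log2 fold change of each of the 47 tested Zfp genes, FoxP1iSkmTg over Control, with its SE from edgeR (5 mice per group). Triangles mark genes with a KRAB box, red genes rose and blue genes fell at an adjusted p under 0.05. Of the genes 29 lie to the right of 0 and 18 to the left, and none lies close to 0, since the table lists only genes with an unadjusted p of at most 0.04998.

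Zfp706 had the smallest p of the members. It encodes a very small protein, of 76 residues, which in mouse embryonic stem cells is known to repress Klf4 and to allow exit from self-renewal. Control replicates 1 to 5 stood at 921, 860, 952, 868 and 867 normalized counts and FoxP1iSkmTg replicates 1 to 5 at 1315, 1279, 1340, 1134 and 1147. Every FoxP1iSkmTg mouse was above every Control mouse. The rise was 1.39-fold (log2 fold change 0.48 ± 0.07 SE, edgeR adjusted p = 0.00118).

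Zfp703, whose human counterpart is a transcriptional corepressor gene amplified in breast cancer, rose 1.59-fold (log2 fold change 0.67 ± 0.12 SE, edgeR adjusted p = 0.00462). Its normalized counts were 541, 636, 417, 396 and 477 in Control and 834, 775, 762, 719 and 824 in FoxP1iSkmTg replicates. The Control mice spread more widely (SD 97.6) than the FoxP1iSkmTg mice (SD 47.1), and the groups did not overlap. Zfp622 encodes a factor that, from work on human cells and its yeast homologue, matures the large ribosomal subunit in the cytoplasm. It rose 1.33-fold, from 384, 385, 327, 413 and 424 to 496, 479, 576, 438 and 580.4 normalized counts (log2 fold change 0.41 ± 0.10 SE, edgeR adjusted p = 0.0243). The lowest FoxP1iSkmTg mouse lay just above the highest Control mouse. Zfp622 did not pass without Control replicate 1 (edgeR adjusted p = 0.0564), 2 (0.0582) or 3 (0.0573) or without FoxP1iSkmTg replicate 3 (0.0584) or 5 (0.0541).

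Zfp106 was by far the most abundant member. It encodes an RNA-binding protein without which mice lose motor neurons and muscle mass. Its mean was 190.6 ± 9.39 FPKM in Control mice (SD, n = 5), and it alone held 52.7% to 56.2% of the summed FPKM of all members in Control mice and 43.0% to 47.2% in FoxP1iSkmTg mice. Control mice stood at 33797, 34799, 35630, 37850 and 33661 normalized counts and FoxP1iSkmTg mice at 27121, 30215, 29502, 27284 and 28530. All 5 FoxP1iSkmTg mice were lower than all 5 Control mice. The fall was 1.23-fold (log2 fold change -0.30 ± 0.06 SE, edgeR adjusted p = 0.00711). Without Zfp106, the summed FPKM of the other members was 160 ± 3.25 in Control and 185 ± 12.1 in FoxP1iSkmTg mice (SD, n = 5), with ranges of 157 to 165 and 171 to 198. The most abundant of these others was Zfp651, at a mean of 36.4 FPKM in Control and 43.9 FPKM in FoxP1iSkmTg mice. Each summed member was listed for a low p on this same contrast. The sums therefore describe the listed genes and not Zfp genes in general.

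Zfp641 and Zfp654, in which the KRAB pattern was not found, fell as well. Zfp641 had 236, 253, 219, 283 and 227 normalized counts in Control mice and 161, 176, 184, 165 and 199 in FoxP1iSkmTg mice (log2 fold change -0.46 ± 0.10 SE, edgeR adjusted p = 0.0137). Zfp654 had 533, 547, 588, 567 and 564 in Control and 436, 509, 392, 422 and 449 in FoxP1iSkmTg mice (log2 fold change -0.34 ± 0.07 SE, edgeR adjusted p = 0.0158). Neither gene showed overlap between the groups, and the falls came to 1.38-fold and 1.27-fold.

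**Figure D2:**
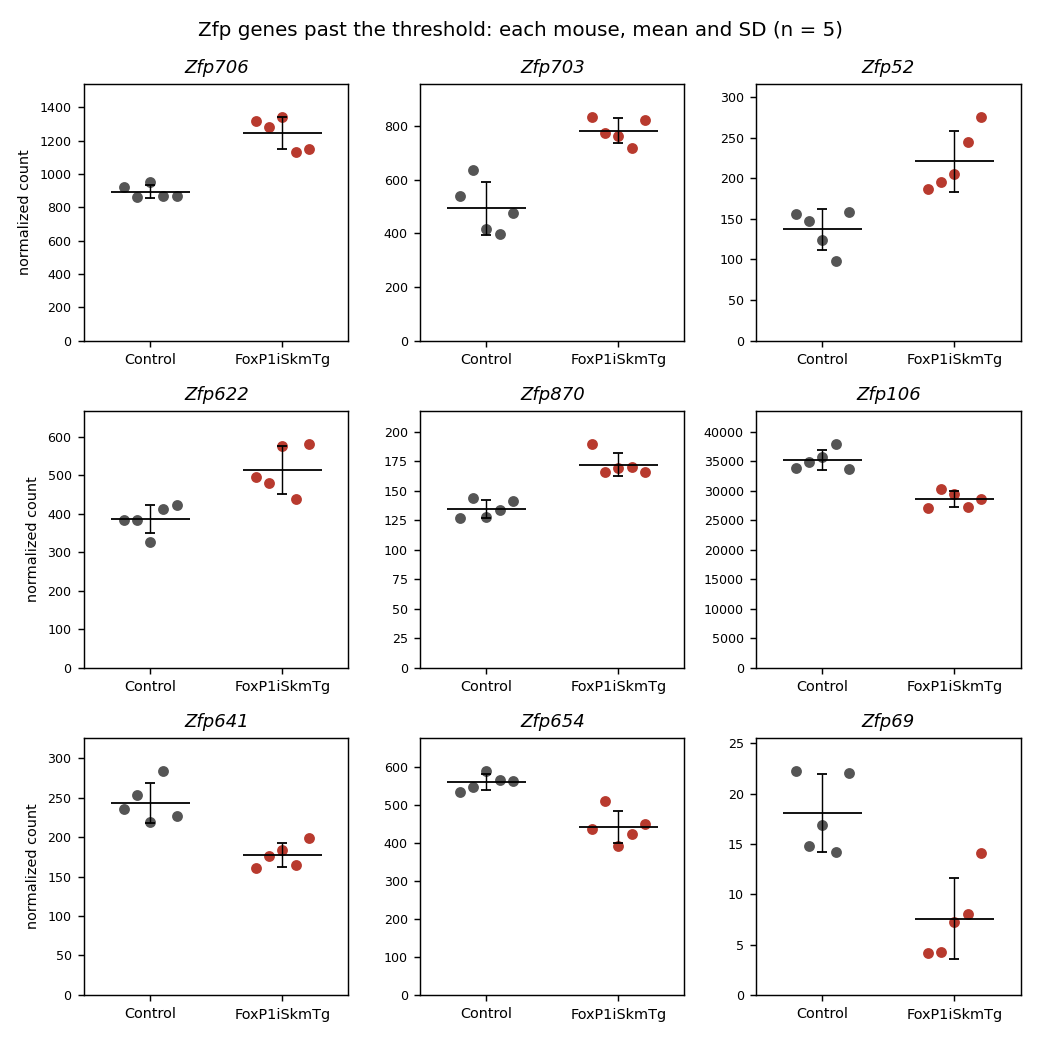
Normalized counts of the 9 Zfp genes past the threshold in each Control (grey) and FoxP1iSkmTg (red) mouse, with the mean (line) and SD (bar, n = 5), each panel starting at 0. In all 9 panels the groups do not overlap, with the first 5 genes higher and the last 4 lower in FoxP1iSkmTg mice.

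The 3 KRAB members past the threshold went both ways. Of the 20 members with a box 17 were tested, and 2 rose, 1 fell and 14 stayed above the threshold. Of the 30 without a box 3 rose, 3 fell and 24 stayed above it. Among all tested genes 17.5% rose and 19.8% fell. Zfp69, the KRAB member that fell, lost its call in 9 fits that left out a mouse, and Zfp870 in 7. So few calls give no direction for KRAB members as a class. By direction alone 10 KRAB members lay above and 7 below Control, with a median log2 fold change of 0.24, and 19 members without a box lay above and 11 below, with a median of 0.25. The KRAB members were the less abundant, at a median of 1.29 FPKM in Control mice against 3.10 FPKM for the others. The difference between these classes was not tested.

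Coding stretches of the A box are shown for the 3 KRAB members past the threshold, to set the 2 that rose beside the 1 that fell. Capitals mark the codons whose residue matches the scored pattern, 18 in Zfp52, 17 in Zfp870 and 15 in Zfp69. The stretches lie at chr17:21557144-21557251 on the plus strand, chr17:32885967-32886074 on the minus strand and chr4:120935077-120935184 on the minus strand (GRCm38), each within 1 coding exon.
Zfp52: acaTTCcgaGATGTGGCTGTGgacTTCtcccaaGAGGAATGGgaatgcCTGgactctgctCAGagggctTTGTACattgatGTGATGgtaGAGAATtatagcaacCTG
Zfp870: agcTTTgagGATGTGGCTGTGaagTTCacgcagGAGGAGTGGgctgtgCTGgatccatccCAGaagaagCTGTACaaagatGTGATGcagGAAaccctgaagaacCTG
Zfp69: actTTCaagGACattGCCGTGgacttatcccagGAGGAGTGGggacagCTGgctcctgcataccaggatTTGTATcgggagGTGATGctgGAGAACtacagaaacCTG
Over these 108 bases Zfp52 and Zfp69 were identical at 74 positions, and Zfp870 at 68 with each of them. Members of such families resemble each other, though these 3 boxes were not near-identical. Whether reads of closer copies were shared between genes or dropped in counting was not measured. The values of KRAB members are uncertain to that extent.

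Zfp52 rose 1.61-fold, the largest fold among the members that rose. Its normalized counts were 155, 147, 124, 98.5 and 159 in Control and 186, 195, 205, 244 and 275 in FoxP1iSkmTg mice, without overlap. On the log2 scale this was 0.69 ± 0.15 (SE, edgeR adjusted p = 0.0163). Zfp870 rose 1.28-fold, from 127, 144, 128, 133 and 142 to 189, 166, 169, 170.0 and 166 (log2 fold change 0.36 ± 0.09 SE, edgeR adjusted p = 0.0307). These groups did not overlap either. Zfp870 did not pass without Control replicate 1 (edgeR adjusted p = 0.0787), 3 (0.0712) or 4 (0.0677) or without FoxP1iSkmTg replicate 1 (0.0801), 2 (0.0520), 3 (0.0564) or 4 (0.0502).

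Zfp69, a gene known from diabetes susceptibility in obese mice, had the largest fold change of the 47 tested members, 2.39-fold lower, on the fewest reads of the 9. Control mice stood at 22.2, 14.8, 16.9, 14.2 and 22.1 normalized counts and FoxP1iSkmTg mice at 4.21, 4.28, 7.21, 8.06 and 14.1. The highest FoxP1iSkmTg mouse, replicate 5, was next to the lowest Control mouse, so the separation was narrow. On the log2 scale the change was -1.25 ± 0.35 (SE, edgeR adjusted p = 0.0477). Zfp69 passed in a fit without FoxP1iSkmTg replicate 5 (edgeR adjusted p = 0.0164) and not in the other 9 that left out a mouse, with adjusted p-values of 0.116, 0.0740, 0.0852, 0.0687 and 0.114 without Control replicates 1 to 5 and of 0.107, 0.101, 0.0929 and 0.0727 without FoxP1iSkmTg replicates 1 to 4. Zfp69 and Zfp143 lay nearest to the threshold on either side.

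Among the other KRAB members, Zfp809, which in mouse embryonic stem cells silences retroviruses through their primer binding site, had 80.5, 70.8, 116, 86.4 and 85.3 normalized counts in Control mice and 109, 104, 128, 124 and 125 in FoxP1iSkmTg mice (log2 fold change 0.42, edgeR adjusted p = 0.105). Control replicate 3 lay within the range of the FoxP1iSkmTg mice, and without it Zfp809 passed (edgeR adjusted p = 0.0308). The 3 members with too few reads to be tested, Zfp114, Zfp992 and Zfp972, all had a KRAB box. Zfp114 averaged 7.19 ± 5.14 normalized counts in Control mice and 1.51 ± 1.16 in FoxP1iSkmTg mice, Zfp992 4.68 ± 2.41 and 0.652 ± 1.05, and Zfp972 3.78 ± 2.59 and 0.835 ± 0.889 (SD, n = 5). In each the groups overlapped, and none passed when the filter on low counts was left out.

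Zfp651 was second in abundance, at 36.4 ± 1.71 FPKM in Control and 43.9 ± 5.09 FPKM in FoxP1iSkmTg mice (SD, n = 5). The file's transcription factor classes place it among BTB zinc finger genes. It had 4605, 4800, 4209, 4603 and 4543 normalized counts in Control mice and 5875, 5498, 6313, 4807 and 4917 in FoxP1iSkmTg mice. The groups were separate, but the gap between Control replicate 2 and FoxP1iSkmTg replicate 4 was small, and Zfp651 did not pass (log2 fold change 0.27 ± 0.08 SE, edgeR adjusted p = 0.0619). It passed without FoxP1iSkmTg replicate 4 (edgeR adjusted p = 0.0282) or 5 (0.0419). Next in abundance in Control mice were Zfp706 at 10.1 ± 0.463, Zfp703 at 8.23 ± 1.62 and Zfp180 at 6.40 ± 0.438 FPKM, and of 50 members 42 lay under 5 FPKM and 10 under 1 FPKM. Zfp703 and its neighbours in this order, Zfp706 above and Zfp180 below, differed by little more than the SD of Zfp703. Zfp180 itself did not pass (log2 fold change 0.19, edgeR adjusted p = 0.148).

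**Figure D3:**
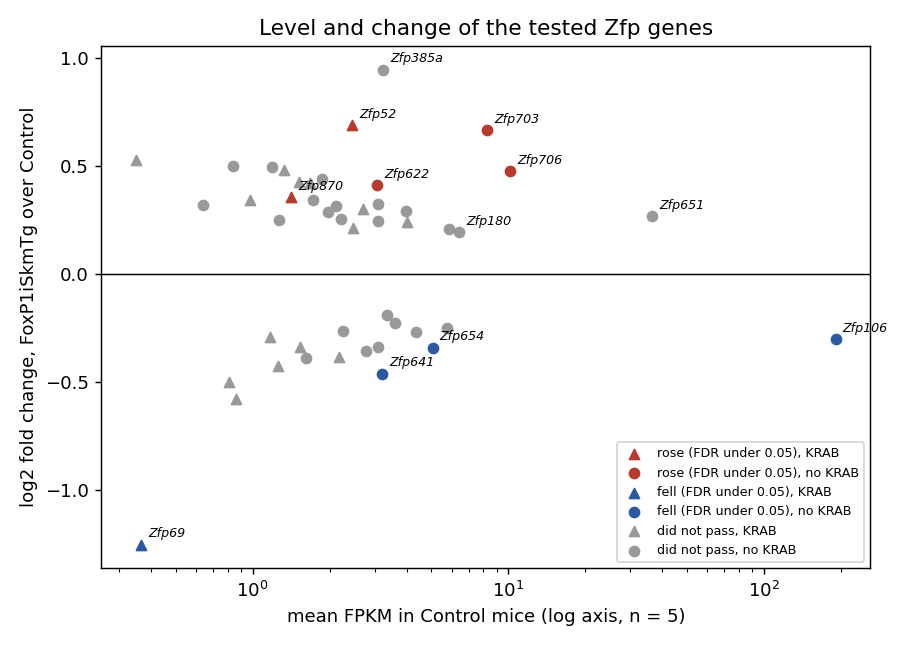
Mean FPKM in Control mice (log axis, n = 5) against the log2 fold change of each of the 47 tested Zfp genes, with triangles for KRAB genes and colours for the edgeR calls. Zfp106 stands far to the right at 190.6 FPKM and Zfp69 at the lower left at 0.367 FPKM with a log2 fold change of -1.25.

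Among RNA-binding members, Zfp385a, which binds mRNA and acts with p53, had the highest log2 fold change above 0 of all members and did not pass. Its normalized counts were 164, 170.1, 149, 102 and 136 in Control and 441, 238, 391, 166 and 153 in FoxP1iSkmTg mice. FoxP1iSkmTg replicates 1 and 3 stood highest and replicates 4 and 5 lay within the Control range. On the log2 scale the difference was 0.95 ± 0.29 (SE, edgeR adjusted p = 0.0708). Zfp385a passed without FoxP1iSkmTg replicate 4 (0.0317) or 5 (0.0267) and with the DESeq2 Wald test (adjusted p = 0.0113).

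Replicates 1 and 3 also had the most Foxp1 and replicates 4 and 5 the least. The order of Foxp1 in FoxP1iSkmTg mice, with replicates 1 and 3 above replicate 2 and replicates 4 and 5 below it, was shared by 7 of the 47 tested members (14.9%), against 11.3% of all tested genes in the table. These members were Zfp120, Zfp385a, Zfp398, Zfp423, Zfp524, Zfp651 and Zfp706, and Zfp398 among them lay below Control by direction. The reverse order was seen in 0 members and in 10.6% of all tested genes. This pattern was noticed in the values, and no correlation was computed.

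**Figure D4:**
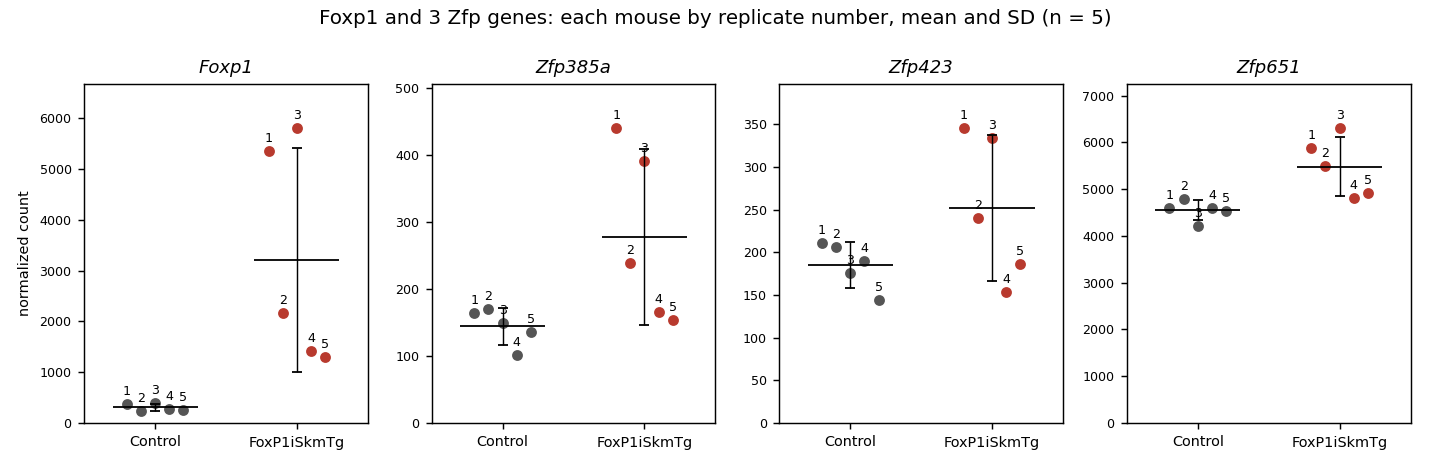
Normalized counts of Foxp1, Zfp385a, Zfp423 and Zfp651 in each Control (grey) and FoxP1iSkmTg (red) mouse, numbered by replicate, with the mean (line) and SD (bar, n = 5) and axes from 0. In all 4 panels FoxP1iSkmTg replicates 1 and 3 are the highest and replicates 4 and 5 the lowest of their group, and for Zfp385a and Zfp423 the latter lie within the range of Control mice.

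Of the members with known roles at promoters, Zfp143, an activator of small nuclear RNA genes and of many other promoters, lay below Control without overlap, at 163, 178, 164, 197 and 156 against 122, 147, 131, 145 and 124 normalized counts. Its log2 fold change of -0.36 ± 0.10 (SE) did not pass (edgeR adjusted p = 0.0577), and it passed with the DESeq2 Wald test (adjusted p = 0.0338). Zfp148, which binds GC-rich promoters, had a log2 fold change of -0.19 (edgeR adjusted p = 0.232), with FoxP1iSkmTg replicate 2 at 638 normalized counts inside the Control range of 588 to 652.

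The paralogues Zfp423 and Zfp521, known as regulators in fat cell precursors and other progenitors, lay on opposite sides of Control and did not pass. Zfp423 had 211, 207, 176, 189 and 145 normalized counts in Control mice and 346, 241, 334, 154 and 186 in FoxP1iSkmTg mice (log2 fold change 0.44 ± 0.21 SE, edgeR adjusted p = 0.308). Zfp521 had 277, 261, 380, 420 and 348 in Control and 287, 252, 320, 219.9 and 254 in FoxP1iSkmTg mice (log2 fold change -0.34 ± 0.14 SE, edgeR adjusted p = 0.209). The groups overlapped in both. Of 5 fibro-adipogenic markers 0 were listed, and of 5 adipocyte markers 1, Plin1, which did not pass. The levels of the unlisted markers are not known here. Members linked to chromatin or splicing were Zfp827, known in human cells for bringing the NuRD complex to telomeres, Zfp687, and Zfp318, which controls the choice between IgM and IgD transcripts in B cells. Their log2 fold changes were 0.50, 0.25 and 0.25, with edgeR adjusted p-values of 0.0959, 0.184 and 0.127, and Zfp827 passed without FoxP1iSkmTg replicate 5 (edgeR adjusted p = 0.0305) and with the DESeq2 Wald test (adjusted p = 0.0468).

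By role, 3 of 10 genes for RNA binding or decay were listed, of which Zfp622 rose, Zfp106 fell and Zfp385a did not pass. Of 12 genes placed here among regulators of muscle, fat and metabolism 3 were listed, and Zfp703 rose. The placing of Zfp703 in that list was a choice made by hand, on which these data do not bear. Of 10 KRAB genes known for silencing of retroelements or imprints 2 were listed, of 9 promoter-binding factors without a KRAB box 2, and of 15 chromatin-linked genes 3. None of these 7 passed, Zfp992 being untested. Among the tested members 19.1% passed and among all tested genes 37.3%. Counts as small as those of these lists are therefore no trait of a role.

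The remaining members did not pass. Over all 38 that did not, 24 lay above Control, with log2 fold changes of 0.19 to 0.95, and 14 below, with -0.58 (Zfp984, edgeR adjusted p = 0.101) to -0.19, and the adjusted p by edgeR ran from 0.0577 to 0.308. The groups did not overlap in 5 of the 38, namely Zfp143 below and Zfp651, Zfp963, Zfp263 and Zfp110 above Control. Over all tested genes, those that passed included, the groups did not overlap in 42.2%. The share among all genes that did not pass was not counted. Separation of the groups is thus nothing particular to these 5 in a table selected on this contrast. Zfp110 encodes a partner of the neurotrophin receptor p75. Single mice also decided the calls of Zfp629, which passed without Control replicate 1 (edgeR adjusted p = 0.0406), Zfp963 without FoxP1iSkmTg replicate 3 (0.0463), Zfp512b without FoxP1iSkmTg replicate 1 (0.0384), and Zfp397 (0.0299) and Zfp787 (0.0347) without FoxP1iSkmTg replicate 4.

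KRAB zinc finger genes often lie in clusters. The members lay on 13 chromosomes, with 12 of the 50 (24.0%) on chromosome 7, where 7.99% of the listed protein-coding genes lay. No other chromosome held more than 5, the number on chromosome 17. Those on chromosome 7 included genes in which the KRAB pattern was not found, such as Zfp143 and Zfp180. The share of all Zfp genes on chromosome 7 was not counted, so the 24.0% is no trait of the listed ones. Within 1 Mb of each other on 1 chromosome there were 7 neighbouring pairs, of which 3 had the same direction, 3 had opposite directions and 1 held an untested gene. Zfp52 (chr17:21535539-21562601, mm10) and Zfp948 (chr17:21567008-21588699) are 4407 bases apart, and both lay above Control, with log2 fold changes of 0.69 and 0.43, of which Zfp948 did not pass (edgeR adjusted p = 0.1505). Zfp870 (chr17:32879219-32891590) and Zfp763 (chr17:33016863-33033402) lay on opposite sides, at 0.36 and -0.50, of which Zfp763 did not pass (edgeR adjusted p = 0.146).

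Foxp1 belongs to the forkhead factors, which read sequences around the letters TGTTTAC. In the 300 bases around the start of each gene (250 before and 50 after) in RefSeq on GRCm38.p6, these letters on either strand were found for 1 of 39 members with such a sequence, Zfp874b, or 2.56%, against 4.05% of all genes in that table. With 1 match these shares cannot be told apart. No match says only that these letters are not in this window. The study also mapped FOXP1 binding in mouse muscle by ChIP-seq (sequencing of bound DNA), and that map was not used here.

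Of 26 genes chosen here as cofactors through which KRAB proteins act the table held 6, and 3 of them rose while 1 fell. Among all tested genes 37.3% passed, with 17.5% higher and 19.8% lower. Each of the 6 was listed for a low p on this same contrast. The counts therefore describe these few genes and not KRAB cofactors in general, and their share was not tested against that of all genes. Resf1, which takes part in silencing of endogenous retroviruses, had 176 ± 16.0 normalized counts in Control mice and 279 ± 49.9 in FoxP1iSkmTg mice (SD, n = 5), a rise of 1.58-fold (edgeR adjusted p = 0.00726). Chd4, the remodelling enzyme of the NuRD complex, rose 1.28-fold (edgeR adjusted p = 0.0262) and Atf7ip, the partner of the histone methyltransferase SETDB1, 1.21-fold (0.0193). Cbx5, which encodes heterochromatin protein HP1 alpha, was 1.19-fold lower (0.0412). Trim24 and Mta3 did not pass (edgeR adjusted p = 0.0609 and 0.204), and Trim28 and Setdb1, which the table does not list, were not analysed here. Other zinc finger families by symbol were few in the table. The 4 Zkscan and Zscan genes all lay above Control, at log2 fold changes of 0.17 to 0.91, and none passed. Of 4 Zbtb symbols, 3 Zc3h, 3 Zfyve, 3 Zdhhc, 2 Zfhx, 2 Zmiz and 1 each of Zfpm, Zfand and the Klf and Sp genes, Zbtb8os, named for its neighbour and not a zinc finger gene itself, and Zfyve27 rose, and Zc3h6, Zfyve9 and Zfyve21 fell.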

How the data were processed

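Poly-A RNA of tibialis anterior muscle was sequenced from 5 FoxP1iSkmTg and 5 Control mice. The authors deposited whole-number read counts per gene, a normalized signal, which is the count over 1 DESeq2 size factor per mouse, and FPKM, with the gene length behind it. Columns with the log2 fold change and p-values of the authors' comparison were also deposited. The p-values served only to find the listing limit of 0.04998 and the 15846 genes in the authors' adjustment, and the log2 values were not used. The submitters' processing notes name HISAT2 2.0.5, DESeq2 1.20.0 and mm10, whereas the study's methods name STAR and HTSeq, so the aligner is not settled. The strand setting of the counting is not stated there.

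The quasi-likelihood (two-sided) test of edgeR 4.0.16 (R 4.3.3) was run on the counts of all listed genes, with the authors' size factors and filterByExpr at a minimum count of 10. Benjamini-Hochberg adjustment was over 15846 genes, every unlisted gene being given a p above the listed ones. The authors' size factors were preferred to TMM, which assumes few changed genes, an assumption that this selected table may break. The fit was tested on simulated data in which most genes did not change, with adjustment over the tested genes alone. The real table was selected for a low p and adjusted over 15846 genes, so that test does not cover the selection. Replicates are separate mice. KRAB, SCAN and C2H2 patterns were searched in GENCODE M21 coding sequences, with 12 of 18 KRAB and 20 of 30 SCAN positions required. The KRAB A box pattern fixes residues and leaves others free, and a finger is C, 2 to 4 residues, C, 12 residues, H, 3 to 5 residues, H. Named are Foxp1, every member past the threshold, the 5 most abundant members, members of role lists and the members nearest the threshold; the non-overlapping members that did not pass, the neighbouring pairs, Zfp874b, Zfp984, and members whose call or order among the mice is described were added after their values were seen. The members and lists were chosen with earlier results of these data known. Alternatives were DESeq2 1.42.0, limma 3.58.1 (voom), other scalings and filters, another adjustment, single mice left out and the replicate number as a block.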

Additional observations from a re-analysis of the deposited data

Results flagged for a closer look

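In 96 groups of 5 values (the tested members and Foxp1), 3 had a highest or lowest mouse set apart from its group. By chance about 4.8 such groups would be found. Zfp870 stood at 189 normalized counts in FoxP1iSkmTg replicate 1, with the next highest at 170.0. Zfp318 stood at 360 normalized counts in Control replicate 1, with the next highest at 304. Zfp524 stood at 30.6 normalized counts in FoxP1iSkmTg replicate 4, with the next lowest at 43.3.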

How the results depend on the processing

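The number of members past the threshold was 9, with 5 higher and 4 lower. It was 14 of 50 with the DESeq2 Wald test, of which 8 were higher, where 49.5% of all genes passed, and the added members were Zfp143, Zfp385a, Zfp512b, Zfp651 and Zfp827. It was 45 of 47 when adjusted over the listed and tested genes alone, with 27 higher and 18 lower, where 95.6% of all genes passed. This adjustment is over fewer genes, all selected for a low p, so nearly every gene passed. The members' share was not below that of all genes there, but where nearly every gene passes the shares can hardly differ. With single mice left out it was 7 to 11, with 4 to 7 higher and 3 to 4 lower. In those fits 26.5% to 39.1% of all genes passed. All 9 genes were shared with the DESeq2, limma-voom, TMM, recovered-total and unfiltered fits, and 8 with a minimum count of 50, where Zfp69 was not tested. Of the 9, 6 passed in every fit that left out a mouse, and the exceptions were Zfp622, Zfp870 and Zfp69. No member turned direction in any alternative run. With TMM on the recovered totals, where log2 fold changes moved by 0.03 at the median, 10 members passed, the added gene being Zfp651. There 40.4% of all genes passed, and the share of higher genes among all calls was 55.0% against 46.9%. Zfp651 was also added with size factors from the listed genes, where 38.9% of all genes passed. Leaving out 1 mouse at a time put the log2 fold change of Foxp1 at 3.07 to 3.59. Replicate numbers did not pair the mice: the correlation of deviations between mice that share a number was -0.00538 to 0.0532, and it was the highest for 0 of 5 numbers. Under the replicate block 6 members passed, 5 higher and 1 lower, of which 4 were shared, where 29.1% of all genes passed. Zfp641 (edgeR adjusted p = 0.0550), Zfp654 (0.0535), Zfp622 (0.0619), Zfp69 (0.0850) and Zfp870 (0.114) did not pass there, and Zfp385a (0.0386) and Zfp827 (0.0384) did. Few reads limit the low members: 4.21 to 22.2 normalized counts stand behind Zfp69. Causes of these changes were not tested.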
